A study of Mus musculus with 5 samples.

Results

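The regions described here are the stretches of genes on mouse chromosomes 12 and 15 in which RNA precipitated with HA-tagged CYFIP1 was called over a control. They were chosen by the authors' region calls, as the unique regions on these chromosomes that the authors' annotation places entirely inside a gene. Of 4191 and 1920 listed regions for knock-in anti-HA over IgG in mice 1 and 2, 434 and 540 met this rule, and of 5355 and 5362 regions for knock-in anti-HA over wild-type anti-HA, 516 and 539 did. These are 2029 of 16828 region entries in all. The rule rests on where regions were called, which is itself a readout: chromosomes 12 and 15 held at least 754 and 529 regions in each of the 4 lists, while the next chromosome, 4, held 75 in its smallest list and chromosome 7 held 19.

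RNA immunoprecipitation followed by sequencing was done on hippocampus of C57BL/6 mice to find the mRNAs bound by CYFIP1. Group 1 holds anti-HA precipitates of 2 knock-in mice, group 2 holds precipitates of the same 2 knock-in mice with mouse control IgG, and group 3 is the anti-HA precipitate of 1 wild-type mouse, so there are 5 libraries. The labels give neither age, sex and zygosity nor how the knock-in allele was made, and wild-type tissue with anti-HA shows what the antibody brings down without a tag. Each list pairs 1 library with 1 control library, and both wild-type lists share 1 control.

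CYFIP1 is a subunit of the WAVE complex, which relays Rac signals to branched actin, and it also binds the fragile X protein FMRP and the cap-binding factor eIF4E, through which it restrains translation of neuronal mRNAs. In an immunoprecipitation of RNA, reads from an mRNA can come from the protein's own complexes or from RNA that sticks to beads and antibody. IgG from the same mouse and anti-HA from an untagged mouse are separate measures of this background. Reads over exons come mainly from spliced mRNA, and reads confined to introns come from pre-mRNA, retained introns or unannotated transcripts.

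Short coding stretches of 6 genes show what lies under regions at both ends of the range of HA over IgG, as background for the values that follow. They come from the 3 genes highest and the 3 lowest by that ratio among genes with at least 20 reads in all 4 lists. Each is 150 bases of mRNA sense from GENCODE M21 transcripts on GRCm38, which is mm10. Capitals mark the motif TGGA, its relative AGGA with a different first letter, the motif ACTG and its relative ACTT with a different last letter. Both strands were searched, so their reverse complements are marked too, and neighbouring matches can overlap. These 4-letter motifs are known from studies of FMRP.
D430019H16Rik, high over IgG, chr12:105487605-105487754, plus strand: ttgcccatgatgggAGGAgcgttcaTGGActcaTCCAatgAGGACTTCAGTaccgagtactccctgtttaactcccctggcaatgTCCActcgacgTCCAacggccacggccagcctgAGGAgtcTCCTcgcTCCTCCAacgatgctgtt
Trio, high over IgG, chr15:27897876-27898025, minus strand: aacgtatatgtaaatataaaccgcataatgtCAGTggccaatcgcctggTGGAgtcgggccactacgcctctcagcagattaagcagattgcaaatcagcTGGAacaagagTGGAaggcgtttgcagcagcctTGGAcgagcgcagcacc
Ldoc1l, high over IgG, chr15:84557044-84557193, minus strand: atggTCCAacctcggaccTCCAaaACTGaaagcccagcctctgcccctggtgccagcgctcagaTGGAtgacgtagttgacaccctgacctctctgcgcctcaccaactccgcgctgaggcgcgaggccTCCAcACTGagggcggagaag
Cipc, low over IgG, chr12:86952754-86952903, plus strand: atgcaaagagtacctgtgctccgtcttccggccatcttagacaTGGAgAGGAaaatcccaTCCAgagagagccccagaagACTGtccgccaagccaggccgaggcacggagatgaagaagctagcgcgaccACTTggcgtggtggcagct
Kidins220, low over IgG, chr12:25008403-25008552, plus strand: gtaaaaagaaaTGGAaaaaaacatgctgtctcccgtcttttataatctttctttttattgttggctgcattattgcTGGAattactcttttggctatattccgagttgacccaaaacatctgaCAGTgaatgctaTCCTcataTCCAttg
Hsp90aa1, low over IgG, chr12:110695269-110695418, minus strand: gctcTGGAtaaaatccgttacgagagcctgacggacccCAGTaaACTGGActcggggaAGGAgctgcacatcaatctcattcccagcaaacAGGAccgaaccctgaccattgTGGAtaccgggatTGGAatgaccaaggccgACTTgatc

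The stretches of both kinds carry these letters. The counts here include reverse complements, TCCA for TGGA and TCCT for AGGA, so they are not counts on the mRNA strand alone. D430019H16Rik has 5 TGGA and 5 AGGA, and both Trio and Ldoc1l have 4 TGGA and no AGGA. Among the low genes Hsp90aa1 has 4 and 2, Kidins220 has 3 and 1, and Cipc has 2 and 1. Such matches on either strand are common: of 5496 coding stretches of 150 bases on both chromosomes, 89.8% held TGGA, 86.5% AGGA, 78.6% ACTG and 63.5% ACTT. A match describes letters and is no binding site.

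The regions were short and thinly covered. Their median width was 1995, 2000, 1995 and 2000 bp in the order of the lists given above, and the median region held 4 HA reads in every list. The control median was 1 IgG read in mouse 1, 3 IgG reads in mouse 2 and 1 wild-type read in both wild-type lists. Only 41, 115, 60 and 68 regions held at least 20 reads of both libraries together. Regions were called on bins whose size differed between mice on chromosome 12 (240 bp in mouse 1, 200 bp in mouse 2) and was 285 bp on chromosome 15 in all lists. The lowest HA value in any region was 2 reads, so regions with few reads favour HA by construction.

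The libraries did not stand in the same relation in both mice. Over 404 regions with identical coordinates in both lists of mouse 1, the HA library held 2361 reads, IgG 994 and wild-type HA 1038. Over 492 such regions of mouse 2, HA held 3531 reads, IgG 3909 and wild-type HA 1630. HA was the highest of the 3 libraries in 345 regions of mouse 1 and 272 of mouse 2, and IgG was highest in 18 and 144. Regions with no more HA than IgG reads numbered 234 of 540 in mouse 2 (43.3%) and 37 of 434 in mouse 1 (8.53%). IgG of mouse 2 thus stands apart, and library totals are unknown, so ratios of reads are given as folds of the list's median ratio. That median is taken over all regions of the list with at least 20 reads, on every chromosome, and was 2.89 in mouse 1 and 0.947 in mouse 2 over IgG, and 1.41 and 1.75 respectively over wild type. In mouse 2 over IgG, 828 of the 1920 listed regions lay on chromosome 12 and 817 on chromosome 15, so its median is mostly set by the chromosomes described here.

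The regions named 338, 386, 385 and 391 genes, 538 in all, of which 211 had a region in every list. Protein-coding genes made up 319, 362, 362 and 362 of them. The mice shared genes more often than positions: 224 genes had a region over IgG in both (66.3% of the genes of mouse 1 and 58.0% of mouse 2), whereas 171 of 434 regions of mouse 1 (39.4%) and 176 of 540 of mouse 2 (32.6%) overlapped one of the other mouse by at least 1 bp. Over wild type 202 of 516 regions (39.1%) and 210 of 539 (39.0%) did. Identical coordinates were found for 4 regions in each comparison, all on chromosome 15. The bins on chromosome 12 differ between the mice, and their part in this was not tested.

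Exonic sequence made up more of the regions than of the genes around them. Exons of any GENCODE gene were touched by 80.4%, 81.3%, 81.8% and 81.3% of the regions, and coding sequence by 71.0%, 72.8%, 71.1% and 72.4%. Of the bases covered, 29.3%, 29.2%, 30.5% and 29.2% were exonic, against 8.19%, 8.69%, 8.50% and 8.60% of the bodies of the same genes. Only 5, 2, 6 and 2 regions touched the exons of another gene and none of the named one. The centre of the median region lay 45.0% to 46.0% of the way along its gene. These are descriptions of called regions, and callers follow reads.

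Regions confined to introns numbered 85, 101, 94 and 101, and the HA library put a larger share of its reads there than either control did. On the regions with identical coordinates in mouse 1, introns took 274 of the HA reads (11.6%, exact 95% binomial interval 10.3 to 13.0), 52 of the IgG reads (5.23%, 3.93 to 6.80) and 43 of the wild-type reads (4.14%, 3.01 to 5.54). In mouse 2 they took 301 HA reads (8.52%, 7.62 to 9.49), 121 IgG reads (3.10%, 2.58 to 3.69) and 20 wild-type reads (1.23%, 0.751 to 1.89). The HA share was the highest of the 3 in both mice, but the regions were called on these same HA and control reads, so the shares are a description. The intervals cover counting error only, since reads without molecular identifiers need not be independent molecules.

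**Figure D1:**
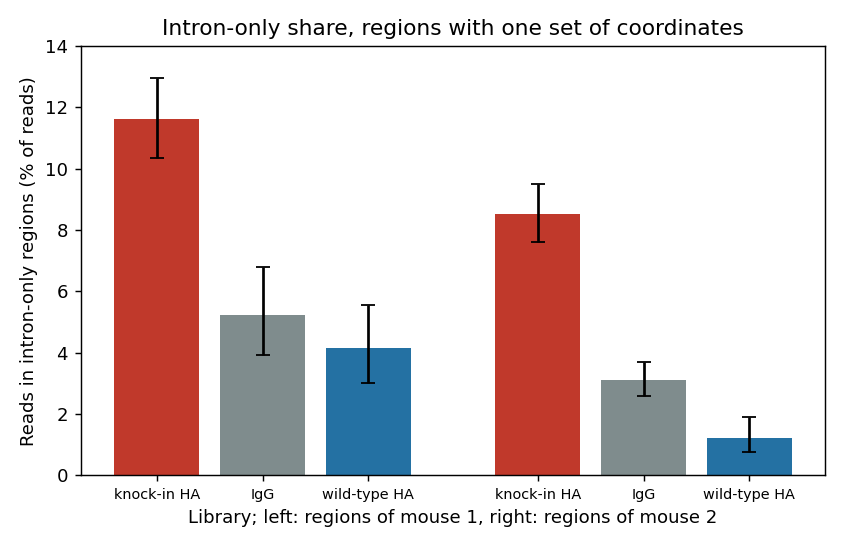
Share of reads (%) that fell in intron-only regions, for the knock-in HA, IgG and wild-type HA libraries, over regions with identical coordinates in both lists of a mouse. Bars are 1 library each, error bars are exact 95% binomial intervals of the reads, and the HA bars (11.6% and 8.52%) stand above both controls in each mouse.

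Calling on HA reads works in the same direction as this difference, and its part in it was not tested. Intron-only regions held a median of 2, 3, 2 and 3 HA reads against 4, 5, 4 and 5 in exon-touching ones, and 63.5%, 50.5%, 81.9% and 84.2% of them had no control read. Summed over all regions, the HA to control ratio was 4.77 in intron-only against 2.16 in exon-touching regions over IgG in mouse 1, and 1.31 against 0.827 in mouse 2. Over wild type it was 7.15 against 1.87 and 15.3 against 1.99. These sums lean on regions with fewer than 10 reads. Over IgG in mouse 2 the ratio was 0.962 in intron-only and 0.983 in exon-touching regions with 10 to 19 reads, and 0.315 (0.222 to 0.441) against 0.685 in those with at least 20, so the order turned there. In mouse 1 over IgG it was 2.10 against 1.90 at 10 to 19 reads. Over wild type at 10 to 19 reads it stayed higher in introns, at 6.63 against 1.97 in mouse 1 and 5.25 against 2.04 in mouse 2, from 5 and 2 intron-only regions. In mouse 1 over wild type it was 1.27 (0.736 to 2.21) against 1.39 with at least 20 reads, from 1 intron-only region. Among regions with at least 20 reads, only 1, 2, 1 and 0 were intron-only.

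Introns of Elfn2 and Immp2l held the most reads among them. The first is in Elfn2, which encodes a leucine-rich repeat protein of synapses, at chr15:78681091-78687075, and held 33 HA, 6 IgG and 26 wild-type reads in mouse 1. HA was high against IgG there and close to wild type. The second is in Immp2l, the gene of a peptidase subunit of the inner mitochondrial membrane. At chr12:41137201-41143400 there were 32 HA and 122 IgG reads in mouse 2. Overlapping that stretch, mouse 1 held 12 HA, 2 IgG and 1 wild-type reads over chr12:41142481-41143440, and mouse 2 held 10 HA reads and 1 wild-type read over chr12:41142601-41143400. Mouse 1 also held 15 HA and 0 wild-type reads over chr12:41136961-41141520, which no list gives for its IgG. Of the libraries listed over parts of this intron, IgG of mouse 2 had the highest count.

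Genes were then compared by the reads of all their regions, with at least 20 reads (HA plus control) required in each mouse. For HA over IgG, 33 genes met this, and for HA over wild type 44 did. All regions had been called for an excess of HA over these controls, so no test is given, and the interval beside a fold is a 95% counting interval. SDs are over 2 mice, and over wild type they hold no variation of the control. Over IgG, D430019H16Rik and Trio lay at least 2-fold above the list median in both mice, which is 2 of 33 genes (6.06%), and the background over all genes of the lists was 6.15%. Immp2l, Kidins220, Klc1 and Ttc8 lay at 0.5-fold or less in both, which is 4 of 33 (12.1%) against a background of 15.9%. Over wild type, Ly6e was the 1 gene of 44 (2.27%) at least 2-fold higher, against a background of 6.14%, and Rtn1 the 1 gene (2.27%) at 0.5-fold or less, against 3.03%. None of these shares is above that of all genes, but over IgG that background is uneven. At least 2-fold in both mice over IgG were 23 of the 34 genes off chromosomes 12 and 15 (67.6%) and 1 of the 356 genes on them (0.281%), counted over all their regions, where 62 lay at 0.5-fold or less (17.4%). Intragenic regions alone were counted for the 33 genes, so 2 of 33 and 1 of 356 are not shares on like terms. With regions that also reach outside a gene counted, 1 of 131 genes on these chromosomes was at least 2-fold over IgG in both mice. Over wild type the shares on these chromosomes were 4.02% and 3.35% of 448 genes.

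**Figure D2:**
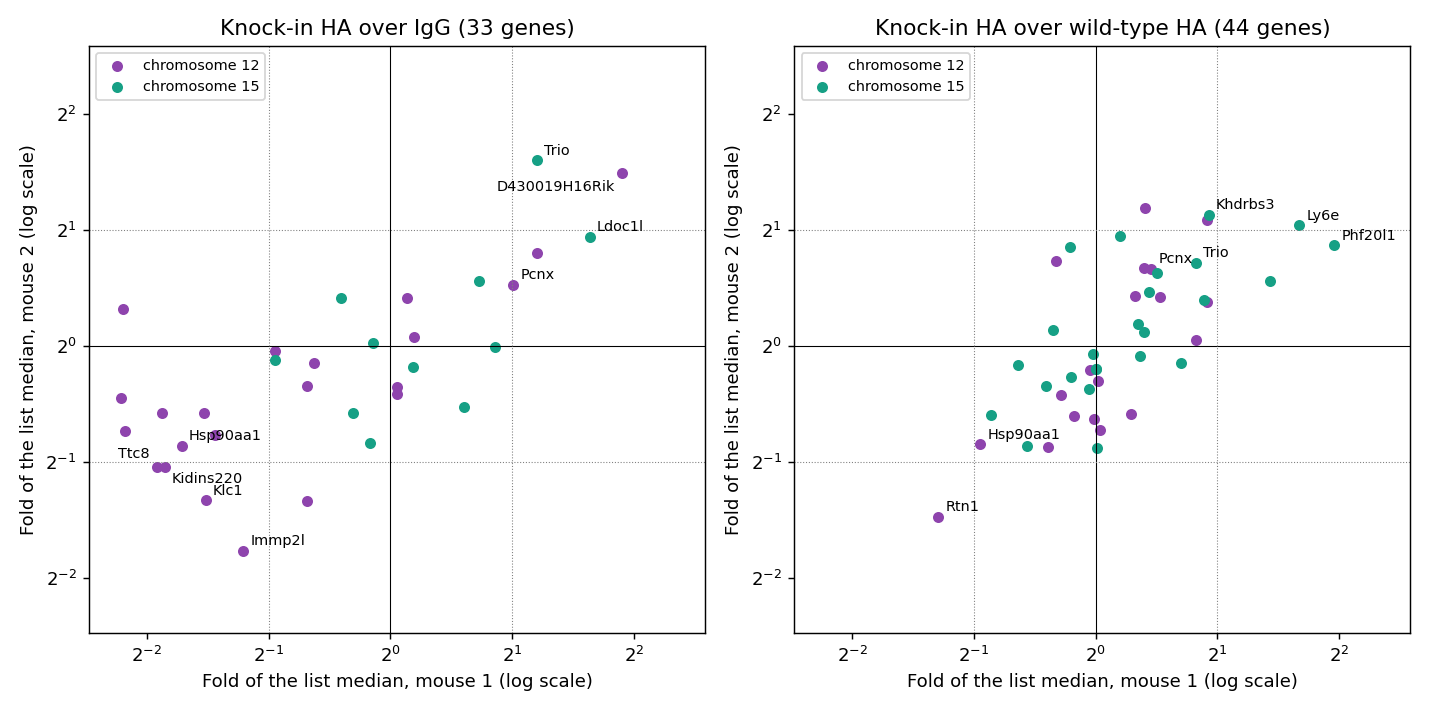
Fold of the list median in knock-in mouse 1 (x axis) against mouse 2 (y axis), both on log scales, for HA over IgG (left, 33 genes) and HA over wild-type HA (right, 44 genes). Each point is 1 gene, purple on chromosome 12 and green on chromosome 15, dotted lines mark 2-fold and 0.5-fold, and D430019H16Rik and Trio (left) and Ly6e (right) lie past 2-fold in both mice.

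Taking all genes together, the 33 genes had a median of 0.754-fold and 0.785-fold over IgG in mice 1 and 2, beside 0.675-fold and 0.874-fold for all 390 genes with enough reads. Over wild type the medians were 1.09-fold and 0.997-fold for the 44 genes and 1.19-fold and 1.07-fold for all 1188. In mouse 1 the chromosomes differed over IgG: the 22 genes on chromosome 12 had a median of 0.475-fold and the 11 on chromosome 15 one of 1.14-fold. In mouse 2 these medians were 0.742-fold and 0.992-fold. All 4 genes at 0.5-fold or less over IgG lie on chromosome 12. Over wild type the chromosomes lay closer, at 1.03-fold and 1.15-fold in mouse 1 and 0.868-fold and 1.09-fold in mouse 2. The size of the bins and the range of the authors' score also differ by chromosome, and their part in this was not tested.

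Of the 2 genes at least 2-fold over IgG in both mice, D430019H16Rik had more reads. It had 65 HA reads beside 6 for IgG in mouse 1, and 72 beside 27 in mouse 2, so HA was the higher library in both. Its fold was 3.74 (1.63 to 10.6) and 2.82 (1.79 to 4.56), a mean log2 of 1.70 ± 0.29 (SD, n = 2). The wild-type library held 56 and 55 reads in its regions, nearly as many as HA, and its fold over wild type was 0.822 and 0.748, with a mean log2 of -0.35 ± 0.10 (SD, n = 2). Scaled by the pooled ratio of the list, that side turns, at 1.36-fold and 1.42-fold. Nearly all its reads came from 1 region at its last exon, at chr12:105484801-105492720 in mouse 1 and chr12:105487601-105492600 in mouse 2. That region is 5116 and 4996 bp exonic but only 222 bp coding, the rest being untranslated.

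Trio encodes an exchange factor that activates Rac in growing axons and dendrites. It had 20 HA reads beside 3 for IgG in mouse 1, and 23 beside 8 in mouse 2, and 8 wild-type reads in each set of regions. HA was above both controls in both mice. Over IgG the fold was 2.30 (0.683 to 12.1) and 3.04 (1.31 to 7.85), a mean log2 of 1.40 ± 0.28 (SD, n = 2), and over wild type it was 1.77 (0.747 to 4.65) and 1.64 (0.709 to 4.25). The interval in mouse 1 includes 1 over IgG, and both intervals over wild type do. Trio lay above 1 in all 4 lists under each of the 3 scalings tried, the list median, the median of the intragenic regions on both chromosomes and the pooled ratio. The reads were spread over 3 regions in mouse 1 and 5 in mouse 2, and the regions with most HA reads overlap at chr15:27897796-27902640 and chr15:27900076-27902640, on coding exons of the minus strand.

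Ldoc1l and Bcl11b followed over IgG. Ldoc1l, a gene derived from a retrotransposon and named Rtl6 in GENCODE M21, had 27 HA reads beside 3 for IgG in mouse 1, and 20 beside 11 in mouse 2. Bcl11b, a transcription factor of dentate granule cells and other neurons, had 20 beside 3 in mouse 1, and 51 beside 31 in mouse 2. Both exceeded the list median in either mouse, Ldoc1l at 3.11-fold and 1.92-fold and Bcl11b at 2.30-fold and 1.74-fold. Over wild type neither departed from the median in one direction, with Ldoc1l at 1.01-fold and 0.544-fold and Bcl11b at 1.01-fold and 0.810-fold.

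A further way to read the folds is to ask which intervals leave out 1 in both mice. Over IgG they lay above 1 for 2 of 33 genes, D430019H16Rik and Pcnx, beside 7.95% of all genes, and below 1 for 6, Cipc, Hsp90aa1, Kidins220, Klc1, Nrcam and Ttc8, beside 22.3%. Over wild type they lay above 1 for 1 of 44 genes, Pcnx, beside 6.14% of all genes, and below 1 for 2, Hsp90aa1 and Rtn1, beside 6.65%. With the list median as the scale, Pcnx and Hsp90aa1 are the genes for which all 4 intervals leave out 1 on the same side. Intervals at the other scalings are not given. With the median of the intragenic regions, Pcnx over wild type in mouse 1 was 1.25-fold and Hsp90aa1 over IgG in mouse 2 was 0.730-fold. Both folds are nearer 1 than with the list median. These 2 genes were singled out after their values were seen.

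Pcnx is the counterpart of fly pecanex, a membrane protein of the Notch pathway, and had the most reads among the genes with at least 20 reads in every list. It held 128 HA, 22 IgG and 66 wild-type reads in mouse 1, with 86, 63 and 31 in mouse 2. HA was the highest library in both mice, but which control was higher changed between them. Over IgG it lay at 2.01-fold (1.27 to 3.32) and 1.44-fold (1.03 to 2.03), and over wild type at 1.37-fold (1.01 to 1.88) and 1.59-fold (1.04 to 2.47). The mean log2 over IgG was 0.77 ± 0.34 and that over wild type 0.56 ± 0.15 (SD, n = 2 each). With the pooled ratio as the scale it was 0.679-fold over IgG in mouse 2 and above 1 in the other lists. Its regions covered 43.0 and 34.6 kb, and the largest count in mouse 1, 77 HA reads with 12 IgG and 41 wild-type reads, was at chr12:81982081-82000800, over coding exons and the untranslated end.

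Hsp90aa1, the stress-inducible form of the chaperone HSP90, was at the other end. It held 30 HA, 34 IgG and 41 wild-type reads in mouse 1, with 36, 69 and 37 in mouse 2. HA was the lowest library in both mice, by a single read against wild type in mouse 2. The fold was 0.305 (0.180 to 0.513) and 0.551 (0.358 to 0.836) over IgG and 0.518 (0.312 to 0.850) and 0.556 (0.341 to 0.904) over wild type. With the pooled ratio it was 1.06-fold over wild type in mouse 2 and below 1 in the other lists. Both its regions, chr12:110690641-110696400 and chr12:110691401-110695800, span its coding exons. Hsp90aa1 belongs to a gene family with close copies, and the sources used here do not say how reads that match several copies were placed.

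Rtn1, a reticulon that shapes the endoplasmic reticulum of neurons, was the gene lowest against wild type. It had 15 HA reads beside 26 for wild-type HA in mouse 1, and 12 beside 19 in mouse 2, or 0.409-fold (0.201 to 0.801) and 0.361-fold (0.160 to 0.783), a mean log2 of -1.38 ± 0.13 (SD, n = 2). Over IgG, with 8 and 14 reads, it lay at 0.648-fold and 0.905-fold, and both intervals include 1. With the median of the intragenic regions on both chromosomes as the scale it was 1.20-fold over IgG in mouse 2. The reads lay on coding exons, 12 of the 15 HA reads of mouse 1 in 1 region at chr12:72303601-72308880.

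The genes low against IgG include Klc1, a light chain of the kinesin motor. It had 98 HA reads beside 97 for IgG in mouse 1, and 40 beside 106 in mouse 2, so that HA and IgG were 1 read apart in mouse 1 and HA fell short in mouse 2. The fold was 0.349 (0.261 to 0.467) and 0.399 (0.270 to 0.579), with a mean log2 of -1.42 ± 0.14 (SD, n = 2). Kidins220, a scaffold of neurotrophin receptors, had 16 beside 20 in mouse 1, and 35 beside 76 in mouse 2, at 0.276-fold and 0.486-fold. Ttc8, a subunit of the BBSome of cilia, had 13 beside 17 in mouse 1, and 17 beside 37 in mouse 2, at 0.264-fold and 0.485-fold. In the wild-type lists Ttc8 was on the other side, with 13 HA reads beside 4 for wild-type HA in mouse 1 and 17 beside 4 in mouse 2. It misses the limit of 20 reads in mouse 1 there. Klc1, Kidins220 and Ttc8 are all genes of chromosome 12. Intragenic regions of that chromosome with at least 20 reads had a median HA to IgG ratio of 1.19 in mouse 1, or 0.411-fold. In mouse 2 that median was 0.729, or 0.770-fold. Scaled by the median of the intragenic regions on both chromosomes, 0 of 33 genes met the low limit over IgG.

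The low value of Immp2l does not come from the same place in both mice. In mouse 2 it was the intron described above. In mouse 1 it came from chr12:41451841-41454720, with 3 HA and 10 IgG reads, a region with 2831 exonic bp that the files assign to Immp2l and also to Lrrn3, a leucine-rich repeat membrane protein whose gene is nested there. In the part of the intron called in mouse 1, 12 HA and 2 IgG reads gave 2.07-fold. Counting only regions inside a single gene leaves 3 genes at 0.5-fold or less over IgG.

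Over wild type the highest of the genes with at least 20 reads in every list was Ly6e, a glycolipid-anchored membrane protein. It held 18 HA reads in both mice, with 4 and 5 wild-type reads and 7 and 34 IgG reads. HA exceeded wild type in both mice and IgG in mouse 1 only. Over wild type the fold was 3.19 (1.05 to 12.9) and 2.06 (0.736 to 7.09), and over IgG 0.888 and 0.559. The counts behind it are small, and its region (chr15:74955571-74959845 in mouse 1, shifted by 1 bin in mouse 2) includes 457 bp of coding and 1504 bp of untranslated sequence. Phf20l1, a reader of methylated lysine, had a higher mean (3.89-fold and 1.83-fold) from 22 HA reads beside 4 for wild-type HA in mouse 1 and 16 beside 5 in mouse 2. It is outside the rule for named genes and was chosen after its values were seen.

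**Figure D3:**
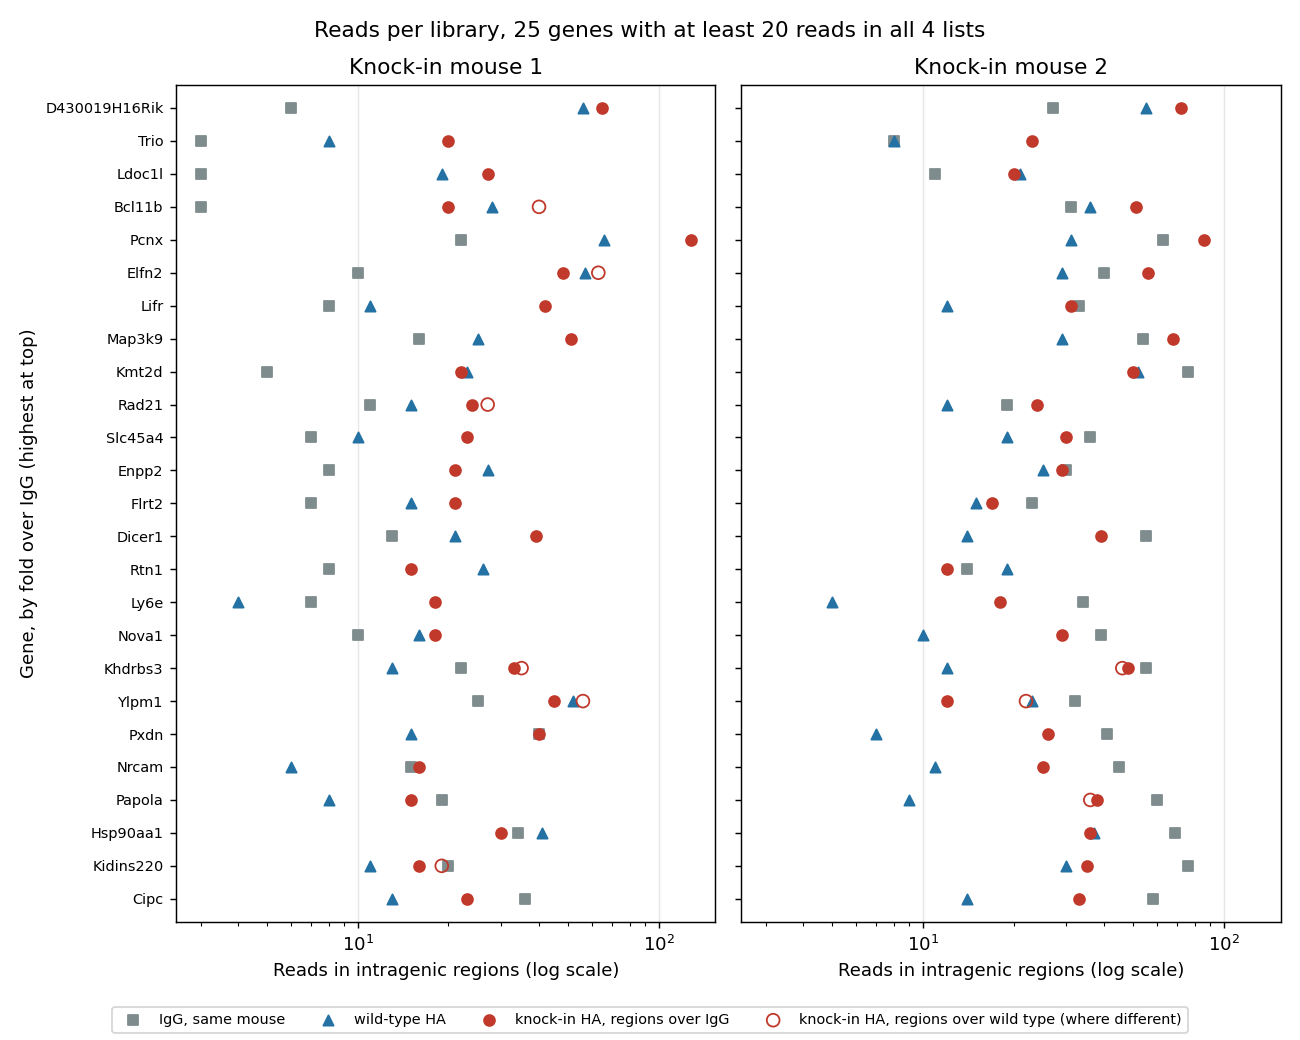
Reads (x axis, log scale) of the knock-in HA, IgG and wild-type HA libraries in the intragenic regions of each of the 25 genes with at least 20 reads in every list, for mouse 1 (left) and mouse 2 (right), 1 library per point. IgG and filled HA points are over the regions called against IgG and wild-type points over those called against wild type, with open circles for HA where that count differs; IgG squares lie mostly left of HA in mouse 1 and mostly right of HA in mouse 2.

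The 25 genes with at least 20 reads in all 4 lists show how the controls divide them. Above the list median in all 4 were Pcnx, Trio and Map3k9, a mixed-lineage kinase of the JNK pathway, and below it in all 4 were Hsp90aa1, Rtn1 and Ylpm1, a nuclear protein. With the ratios scaled by the median of the regions on chromosomes 12 and 15 alone these counts were 5 above and 2 below, and with the pooled ratio 2 and 1. Map3k9 held 51 HA, 16 IgG and 25 wild-type reads in mouse 1, with 68, 54 and 29 in mouse 2, with folds from 1.10 to 1.44. Most of its HA reads, 49 in mouse 1 and 55 in mouse 2, lay in 1 region per mouse. That region also holds 2223 exonic bp of another gene, Gm49654, beside 2251 and 2509 bp of Map3k9. Reads were not divided between these genes. Below the median over IgG and above it over wild type in both mice lay 6 genes: Cipc, Khdrbs3, Ly6e, Nrcam, Papola and Pxdn. D430019H16Rik was the only one above IgG and below wild type, and the other 12 changed sides between mice in at least 1 comparison.

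**Figure D4:**
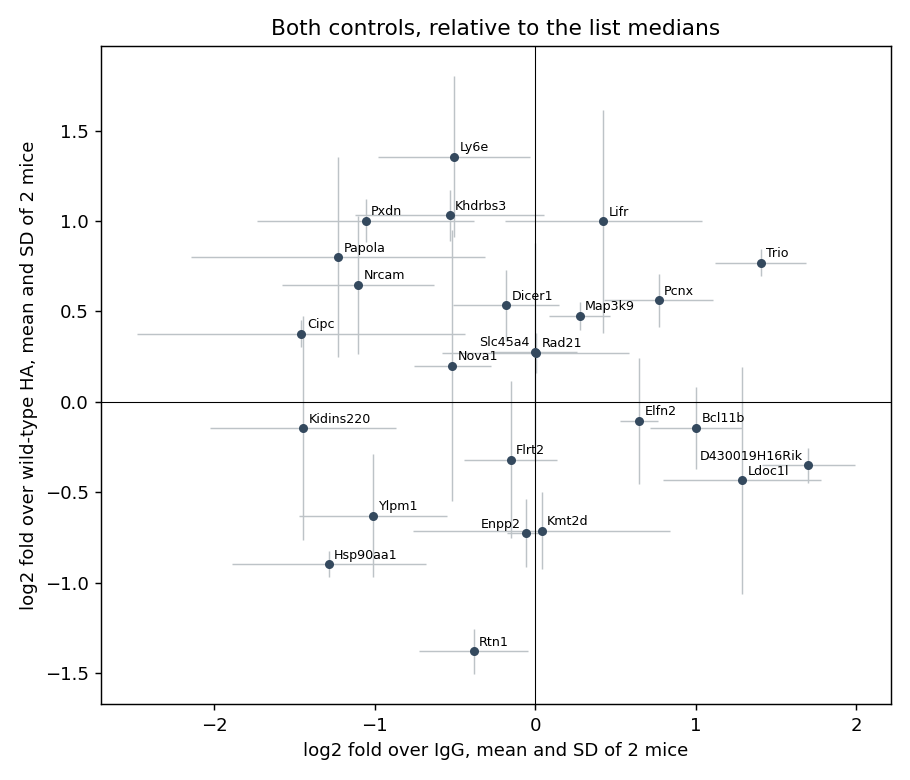
Mean log2 fold over IgG (x axis) against mean log2 fold over wild-type HA (y axis) for the 25 genes with at least 20 reads in every list; points are means and bars SDs over 2 mice, relative to the list medians. Trio and Pcnx lie above 0 on both axes, Hsp90aa1 and Rtn1 below 0 on both, and D430019H16Rik at 1.70 over IgG and -0.35 over wild type.

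Among the genes high over wild type and low over IgG, Pxdn, an extracellular peroxidase, held 40 HA, 40 IgG and 15 wild-type reads in mouse 1, with 26, 41 and 7 in mouse 2. IgG thus equalled or exceeded HA while wild type lay below it. Khdrbs3, a splicing regulator of neurons, had 33 HA reads beside 22 for IgG in mouse 1, and 48 beside 55 in mouse 2. In its regions over wild type it had 35 HA reads beside 13 for wild-type HA in mouse 1, and 46 beside 12 in mouse 2. Papola, the poly(A) polymerase, had 15 HA reads beside 19 for IgG in mouse 1, and 38 beside 60 in mouse 2, against 8 and 9 wild-type reads. Cipc, a repressor of the circadian clock, held 23 HA, 36 IgG and 13 wild-type reads and then 33, 58 and 14. The log2 means of these 4 genes over IgG ran from -1.46 to -0.53 and those over wild type from 0.38 to 1.03.

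Lists of genes by function, which were drawn up for these chromosomes with earlier results of the same data known, mostly held too few reads. Of 25 genes for actin, myosin and the membrane skeleton found on both chromosomes, 9 had a region and 1, Trio, had enough reads over IgG. Over wild type there were 2, Trio and Arhgap5, a GTPase-activating protein with 48 HA reads beside 35 for wild-type HA in mouse 1 and 41 beside 27 in mouse 2 (0.971-fold and 0.868-fold). Of 14 genes for microtubules and motors, 9 had a region and Klc1 was the 1 with enough reads over IgG. Kif21a, a kinesin, was the 1 over wild type, with 32 HA reads beside 30 for wild-type HA in mouse 1 and 40 beside 29 in mouse 2. Dync1h1, the dynein heavy chain, held 41 HA, 55 IgG and 77 wild-type reads in mouse 2 but 7 HA reads in mouse 1.

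No gene of the postsynaptic list (11 of 16 with a region) or of the presynaptic and channel list (7 of 14) reached 20 reads in both mice against either control. Arc, the immediate early gene of synaptic plasticity, had an intragenic region in mouse 2 only, with 19 HA, 28 IgG and 21 wild-type reads. Adgrb1, an adhesion receptor of spines, held 13, 14 and 16 there, again with HA the lowest library. Nrxn3, a presynaptic adhesion molecule, held 8 HA, 6 IgG and 7 wild-type reads in mouse 1, with 9, 10 and 8 in mouse 2, values that lie close together. Kcnq3, a subunit of the M-current potassium channel, had 6 HA reads beside 1 for IgG in mouse 1 and 11 beside 0 in mouse 2, and against wild-type HA 10 beside 1 and 11 beside 0. HA was the highest library there in both mice, at read numbers too low for the comparison.

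The list of RNA-binding and translation genes had a region on 15 of 26 members, and 3 had enough reads against each control. Dicer1, which cuts microRNA precursors, held 39 HA, 13 IgG and 21 wild-type reads in mouse 1, with 39, 55 and 14 in mouse 2. Its fold over IgG was 1.04 and 0.749, and that over wild type 1.32 and 1.59. Nova1, a neuronal splicing factor, held 18 HA, 10 IgG and 16 wild-type reads and then 29, 39 and 10. Ddx17, an RNA helicase, had the largest IgG count in mouse 2, with 93 HA and 250 IgG reads, and over wild type it had 124 beside 89 in mouse 1, and 97 beside 58 in mouse 2, or 0.987-fold and 0.956-fold. Pabpc1, the poly(A)-binding protein, held 34 HA, 68 IgG and 18 wild-type reads in mouse 2. In mouse 2, then, IgG was the highest library for these 4 genes, named for their reads. Zc3h14, the other gene of the list with enough reads over IgG, went the other way there. It had 12 HA reads beside 19 for IgG in mouse 1, and 13 beside 11 in mouse 2 (0.218-fold and 1.25-fold). IgG of mouse 2 also exceeded HA over all regions with identical coordinates, with 3909 reads against 3531.

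Of 19 genes for chromatin and transcription, 9 had a region, and Bcl11b and Kmt2d had enough reads over IgG. Kmt2d, a histone H3 methyltransferase, held 22 HA, 5 IgG and 23 wild-type reads in mouse 1, with 50, 76 and 52 in mouse 2. It was 1.52-fold and 0.695-fold over IgG, on opposite sides of the median, and 0.677-fold and 0.549-fold over wild type. Of 15 adhesion genes 7 had a region. Nrcam held 16 HA, 15 IgG and 6 wild-type reads and then 25, 45 and 11, and Flrt2 held 21, 7 and 15 and then 17, 23 and 15. The imprinted cluster on chromosome 12 was represented by Meg3, Dlk1 and Dio3. Meg3, a long noncoding RNA, had intragenic regions over wild type only. It had 12 HA reads beside 4 for wild-type HA in mouse 1 and 18 beside 7 in mouse 2. On regions with identical coordinates in mouse 1, Dlk1 held 6 HA, 0 IgG and 1 wild-type reads, and Dio3 held 2, 0 and 1. The regions of both imprinted lists (3 of 8 and 2 of 5 genes) stayed under 20 reads in at least 1 mouse.

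Base composition of the exonic parts was close to that of all exons. GC content was 48.8%, 48.4%, 48.9% and 48.2% in the order of the lists, against 47.8% for all exons of both chromosomes. TGGA and its complement occurred 11.2, 11.4, 11.1 and 11.4 times per kb, against 11.8, and AGGA 12.8, 12.4, 12.9 and 12.4 times, against 12.8. Across 32 genes the mean log2 fold over IgG and exonic GC content had a Pearson correlation of 0.349 (Spearman 0.357), and across 44 genes over wild type one of -0.273 (Spearman -0.214). Genes are not independent replicates and the folds of a control share libraries, so these are descriptions only.

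Of the cell type markers, Enpp2 was the 1 with at least 20 reads in the regions described here. It encodes autotaxin, made by oligodendrocytes and choroid plexus, and held 21 HA, 8 IgG and 27 wild-type reads in mouse 1, with 29, 30 and 25 in mouse 2. It lay below the median over wild type in both mice (0.551-fold and 0.663-fold). In intragenic regions of mouse 1 the astrocyte marker Slc1a3 held 10 HA, 4 IgG and 0 wild-type reads, and Sox10 of oligodendrocytes 5, 0 and 4. Over all its regions Slc1a3 had 65 HA reads beside 47 for wild-type HA in mouse 1, and 48 beside 42 in mouse 2. Against IgG these were 32 beside 9 and 48 beside 42. Sox10 had 14 beside 13 and 19 beside 11 against wild type, and 5 beside 0 and 19 beside 21 against IgG. On all chromosomes, 3 of 7 astrocyte, 3 of 6 oligodendrocyte, 1 of 3 choroid plexus and 3 of 5 pyramidal and granule neuron markers had a region in any list, among them Prox1 of dentate granule cells, while 0 of 5 microglial, 0 of 5 endothelial and blood and 0 of 4 interneuron markers did. Since most chromosomes hold few regions, a missing region says little about the cells. In tissue lysate, fewer cells of a type and less RNA per cell cannot be told apart.

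The authors' own values differed between lists and chromosomes. Per the authors' deposited lists, an empirical false discovery rate below 10% was reached by 0% of the regions over IgG in mouse 1. In mouse 2 it was reached by 49.1% on chromosome 12 and 94.7% on chromosome 15. Over wild type it was reached by 54.1% and 96.5% in mouse 1 and by 59.8% and 55.4% in mouse 2. Adjusted p-values below 0.05 were listed for 64.1%, 84.8%, 90.3% and 81.3% of the regions. On chromosome 12 these shares were 85.1%, 85.5%, 85.6% and 88.3%, and on chromosome 15 they were 34.1%, 84.2%, 95.0% and 73.6%.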

How the data were processed

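Precipitated RNA of 5 libraries was sequenced as 50-cycle single-end reads with the NEBNext Ultra DNA kit, which is not stated to keep strand, per the labels' protocols. The submitters' processing notes name TopHat, TopHat2 and the builds GRCm38 and mm10. The 4 deposited lists were written with rtracklayer 1.28.9 on mm10, per the file headers, and the sources used here do not name the region caller. Per region the authors deposited other values packed together: read counts of both libraries (not scaled), reads per kb, a log-odds score of unstated base, an empirical false discovery rate and a p-value, raw and adjusted. Library totals are unknown, so depth per sample cannot be given.

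Reads were summed over a gene's intragenic regions. A region on several genes counted for each, as with Desi1 and Xrcc6, which share their reads. The ratio of HA to control reads was divided by the median ratio of the list's regions with at least 20 reads, and a control without reads was counted as the floor of 3 counts. Clopper-Pearson intervals at 95% cover counting error only. A gene was called at 2-fold or 0.5-fold in both mice with at least 20 reads in each. No significance test was run, because regions were called for these contrasts and each list pairs 1 library with 1. The calculation was tested on simulated data (Python 3.11.15, pandas 2.3.3, scipy 1.17.1). HA counts of identical regions were equal in both lists of a mouse (404 of 404 and 492 of 492), so the lists of a mouse share 1 HA library. Exons came from GENCODE M21, whose genes were matched by Ensembl ID where symbols differ. Nothing says whether tissue was pooled, and the mice are counted as numbered in the labels.

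Named genes were, among those with at least 20 reads in all 4 lists, the 12 with the most reads and the 6 highest and 6 lowest over each control, and up to 4 genes of each of 10 lists by function. The members and lists were chosen with earlier results of these data known. The genes named for meeting a call are outside that rule where they miss the 20 reads in a list.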

Additional observations from a re-analysis of the deposited data

How the results depend on the processing

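No paired analysis was possible because the results are ratios and counts that come from no test; each fold over IgG sets HA beside IgG of the same mouse. The pooled ratio moves log2 folds over IgG by -0.42 (mouse 1) and -1.09 (mouse 2), and those over wild type by 0.73 (mouse 1) and 0.93 (mouse 2), while the median of the intragenic regions on both chromosomes moves them by 0.45, 0.41, -0.13 and -0.06, in the same order. A gene near 1-fold therefore has no fixed side. Low read numbers limit every gene, and 1 wild-type library serves both mice.

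The median log2 fold over genes with at least 20 reads in a list, averaged over mice, was -0.46 over IgG. It became -1.21 with the pooled ratio, -0.036 with the median of the intragenic regions, -0.18 with at least 10 reads and -0.10 with only regions of adjusted p below 0.05. Over wild type it was 0.24, and became 1.07 with the pooled ratio, -0.10 with at least 50 reads, 0.47 with at least 10 reads and 0.40 with adjusted p below 0.05. Leaving out mouse 1 or mouse 2 gave -0.66 to -0.27 over IgG and 0.17 to 0.31 over wild type.

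Counts of genes at least 2-fold, or at 0.5-fold or less, in both mice were 2 and 4 for IgG and, for wild type, 1 and 1. Over IgG they were 0 and 15 with the pooled ratio, 4 and 0 with the median of the intragenic regions, 1 and 1 with at least 50 reads, 4 and 7 with at least 10 reads, 1 and 1 with adjusted p below 0.05, 1 and 9 with regions that also reach outside a gene, and 0 and 0 at 4-fold. Over wild type they were 17 and 0 with the pooled ratio, 0 higher with the median of the intragenic regions, 0 and 0 with at least 50 reads, 12 and 3 with at least 10 reads, 0 lower with adjusted p below 0.05, 10 and 8 with regions that also reach outside a gene, and 0 and 0 at 4-fold, and 2 were lower by intervals that leave out 1. With 1 mouse alone, so that a gene had to pass only there, 5 to 6 genes were higher and 16 to 19 lower over IgG, and 10 were higher and 4 lower over wild type without either mouse. Apart from the scalings, whose construction shifts every fold, and the settings that change the reads or mice required, the cause was not tested. The number of genes behind these counts also changed, from 33 over IgG and 44 over wild type. Over IgG it was 12 with at least 50 reads and 79 with at least 10. Adjusted p below 0.05 left 9, and regions that also reach outside a gene gave 131. Over wild type these numbers were 13, 98, 31 and 162. The counts are therefore not shares of 1 set of genes.

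The median log2 ratio of exon-touching minus intron-only regions with at least 20 reads was -0.34 over IgG and 0.29 over wild type, from 3 and 1 intron-only regions in all. Over IgG it was 1.34 with at least 50 reads. Over wild type it was 0.12 with at least 50 reads, -0.49 with at least 50% of the region on exons, -1.61 with at least 10 reads, -2.44 for summed reads of all regions and -2.40 for summed reads of regions with fewer than 10 reads. The summed settings were chosen after seeing the data. Leaving out a mouse gave -1.49 to 0.80 over IgG, and without mouse 2 it was 0.29 over wild type; without mouse 1 no intron-only region over wild type was left. Regions of mouse 1 that overlap one of mouse 2 numbered 171 over IgG and 202 over wild type by 1 bp, 70 and 91 by at least 50% of both, and 4 and 4 by identical coordinates.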
